A study of Mus musculus with 8 samples.

Results

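Endothelial transcripts were measured in colonic stroma from which CD31-positive cells had been sorted away. The 35 genes described here are known markers of blood or lymphatic endothelium. They were taken by gene symbol from tables of 24346 symbols, and all 35 were found. Of these, 8 mark both vessel types, 14 mark blood vessels, 4 mark blood venules and 9 mark lymphatic vessels. The rows of Ccl21a, a chemokine gene with near-identical annotated copies, and Gm1987 were read as a sum, which leaves 34 values per library. The cells were live stromal cells of the whole large intestine, gated as Podoplanin-positive and negative for CD45, CD31, EpCAM and the dead-cell dye 7AAD. All 8 mice were 12 weeks old and carried floxed Il10ra alleles (Il10ra flox/flox), the gene of the interleukin-10 receptor's ligand-binding chain. The 4 control mice had no Cre recombinase, whereas the 4 cKO mice also carried Pdgfra-cre, which acts in cells that express or once expressed Pdgfra, a gene of fibroblasts. The series' title names the question as how this receptor in fibroblasts limits disease of the large intestine. No mouse in either group had Cre without floxed Il10ra, so that an effect of the Cre allele itself cannot be told apart from loss of the receptor.

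Endothelial cells line vessels and are recognised by junction proteins such as CD31, by receptors for vascular growth factors, and by transcription factors of the ETS and SOX families. Lymphatic endothelium is set apart by Prox1, the factor that specifies it, and by Flt4, the receptor for VEGF-C and VEGF-D, and it secretes CCL21, which draws dendritic cells and T cells into lymph vessels. Lymphatic endothelium carries Podoplanin as fibroblasts do, while blood endothelium lacks it, so that in the gate used here only the CD31 step separates lymphatic cells from fibroblasts.

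Libraries were made from full-length SMART-Seq cDNA, and values are FPKM, the fragments of a gene scaled by its length and by the fragments of the library. Low values lay on whole-number steps that put depth at about 15000000 to 18900000 fragments per library, and 11273 to 11804 genes reached an FPKM of 1. Il10ra was at 0.842, 0.665, 0.614 and 0.403 FPKM in control 1 to 4 and at 0.439, 0.273, 0.633 and 0.636 in cKO 1 to 4. These ranges overlapped, and a value over the whole gene does not show whether the floxed part was lost. Fibroblast markers dominated: Pdgfra was at 126 to 167 FPKM, and Dcn, a matrix proteoglycan, at 6691 to 7360. The library cKO 1 stood apart. It held a summed level of 1014 FPKM over 11 epithelial markers (59.7 to 129 in control, 47.7 to 519 in the other cKO libraries), 170 over 13 myeloid markers (73.1 to 103, and 79.8 to 89.0) and 171 over 9 lymphoid markers (52.4 to 90.9, and 38.7 to 88.8). Its sums were also the highest of the 8 libraries for adipocyte (9.85, at most 5.44 elsewhere) and mesothelial markers (8.07, at most 5.38). The same held for platelet (7.04, at most 5.65) and enteric glial and neuronal markers (2.28, at most 1.75). Its sum was the lowest for 8 fibroblast markers (17183, at least 17224 elsewhere). Of the adipocyte sum in cKO 1, Fabp4 gave 9.75, and of the platelet sum Pf4 gave 4.94. Only 1 of 6 adipocyte, 1 of 6 platelet and 1 of 6 enteric genes was highest in cKO 1. The counts were 3 of 4 mesothelial, 10 of 11 epithelial, 11 of 13 myeloid and 4 of 9 lymphoid genes. The library cKO 1 was also the highest of the 8 for 21 of the 34 endothelial values and the lowest for none. It was the highest for 20.0% of the 18064 genes above 0 in any library. Among the 5653 of them whose mean lay between that of the lowest member and 1 FPKM, the share was 25.8%. The main counts and the larger member differences are therefore given with and without cKO 1. Values given only once include it, and the part of these other cell types in them was not tested.

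The endothelial transcripts were scarce, apart from 3. Eng, Rgcc and Ackr1 lay at the 84.1 to 90.2 percentile of all symbols, those at 0 in every library included. Of the 34 values, 24 had a mean below 1 FPKM. Cdh5, the junctional cadherin of all endothelium and no member of the group, was at 0.017 to 0.126 FPKM. Pecam1, the gene of CD31, was detected in all 8 libraries. Means were higher in cKO for 28 values and lower for 6, where 51.8% of all genes, and 60.0% of the 5653 genes of like level, were higher in cKO. Without cKO 1, 22 were higher, against 50.6% of all genes and 53.2% of those of like level. For 6 values every cKO library lay above every control library: Flt4, Emcn, Cd93, Mmrn1, Reln and the Ccl21a and Gm1987 sum. No member lay wholly below. Among all genes 1.45% did so upward and 1.49% downward, and among the 5653 genes of like level the shares were 1.88% and 0.902%. These 6 also stayed apart without cKO 1, where 2.95% of all genes and 2.92% of those of like level did so upward. Rgcc then lay wholly below the control libraries, as 3.32% of all genes did, and Sele did so without control 4 (3.27%). By limma, which tested the 10 values with a mean of at least 1 FPKM, none was called (0.00869% of 11505 genes were), and 4 were higher at an unadjusted p under 0.05, where 2.37% of all genes were higher and 3.02% lower. Without cKO 1, Esam was no longer among these 4 (limma unadjusted p = 0.0591). Tested without that filter, 0 of the 34 values were called (0.00554% of 18064 genes), and at an unadjusted p under 0.05 there were 10 higher (2.64% of genes) and 1 lower, Sele (2.56%). In bulk RNA, fewer cells of a type and less RNA per cell cannot be told apart.

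**Figure D1:**
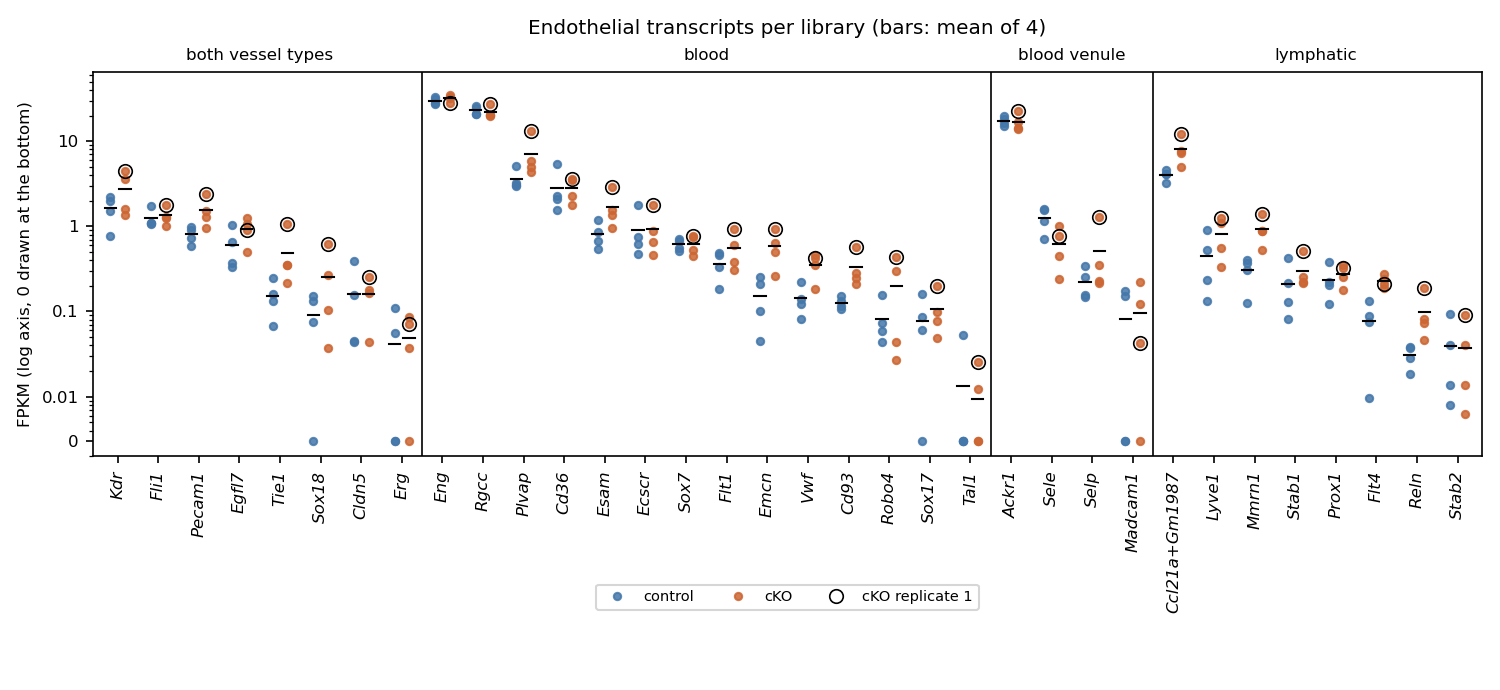
FPKM of each member in the 8 libraries on a log axis (0 at the bottom), grouped by vessel class, with control in blue, cKO in orange, bars for the mean of 4 and a ring around cKO 1. Eng, Rgcc and Ackr1 stand well above the rest, and cKO 1 is the highest library for 21 of the 34 values.

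Among junction genes, Pecam1 (chromosome 11, 106654217-106750628, minus strand, GRCm38) was at 0.594, 0.724, 0.990 and 0.904 FPKM in control 1 to 4 and at 2.37, 0.968, 1.30 and 1.53 in cKO 1 to 4. Only cKO 2 fell within the control range. The log2 difference was 0.47 ± 0.17 (SE, limma, n = 4 and 4, adjusted p = 0.897), and 0.33 without cKO 1. Esam, an adhesion molecule of endothelial tight junctions, was at 0.855, 1.17, 0.676 and 0.545 in control and 2.94, 0.958, 1.56 and 1.36 in cKO. The groups overlapped through cKO 2 and control 2, with a log2 difference of 0.54 ± 0.21 (SE, limma adjusted p = 0.897), or 0.34 without cKO 1. Cldn5, the main claudin of endothelial junctions, did not share this pattern: it stood on 1, 3, 1 and 9 fragments in control and 6, 1, 4 and 4 in cKO, and its means were 0.159 and 0.160 FPKM.

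Plvap, which forms the diaphragms of fenestrated capillaries (chromosome 8, 71497765-71511752, minus strand), was at 3.20, 3.03, 2.96 and 5.08 FPKM in control and 13.1, 4.95, 4.37 and 5.92 in cKO. The cKO 1 value is set well apart from all others, and control 4 lay above cKO 2 and cKO 3. The log2 difference of 0.73 ± 0.28 (SE, limma adjusted p = 0.897) dropped to 0.43 without cKO 1. Emcn, a sialomucin of capillary and venous endothelium (chromosome 3, 137341067-137432185, plus strand), was at 0.0445, 0.102, 0.211 and 0.253 in control and 0.943, 0.503, 0.630 and 0.264 in cKO. The groups did not overlap, although cKO 4 exceeded control 4 only narrowly. The cKO mean was 3.83-fold higher, or 3.05-fold without cKO 1 (exact permutation p = 0.0286, two-sided and unadjusted, n = 4 and 4), the smallest p that 70 arrangements allow. Among the 24 members below the limma filter, 5 reached that p, which is reached where the groups do not overlap. Among the 5653 genes of like level, 1.88% lay wholly higher in cKO and 0.902% wholly lower.

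Cd93, a receptor that holds endothelial cells to each other, gave 18, 12, 13 and 16 fragments in control and 72, 35, 27 and 30 in cKO. Every cKO library lay above every control library, and the ratio of summed fragments after scaling for depth was 2.60 (95% interval 1.92 to 3.56, counting error only). The fold in mean FPKM was 2.61, or 1.96 without cKO 1. Vwf, the clotting factor stored in endothelial granules, gave 13, 31, 20 and 23 against 71, 30, 61 and 75 fragments. The groups overlapped only where control 2 lay above cKO 2 (exact permutation p = 0.0571), and the fold was 2.5, or 2.34 without cKO 1. Ecscr, a regulator of endothelial migration, had means of 0.909 ± 0.6 and 0.936 ± 0.573 FPKM (SD, n = 4), and Cd36, the fatty acid carrier of capillaries, of 2.83 ± 1.73 and 2.79 ± 0.902. For both genes the groups overlapped and the means lay within 1 SD of each other.

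Of the receptors, Flt4 (chromosome 11, 49609263-49652739, plus strand) gave 1, 8, 8 and 14 fragments in control 1 to 4 and 23, 20, 31 and 25 in cKO 1 to 4. Every cKO library lay above every control, and of the 6 such values this was the only one whose highest library was not cKO 1. The ratio of summed fragments was 2.98 (95% interval 1.98 to 4.62, counting error only), and the fold in mean FPKM was 2.97 with cKO 1 and 3.05 without it. Kdr, the main VEGF receptor of blood endothelium, was at 0.766, 1.52, 2.22 and 2.00 FPKM in control and 4.52, 1.38, 3.57 and 1.58 in cKO, with 2 cKO libraries inside the control range (log2 difference 0.46 ± 0.29, SE, limma adjusted p = 0.92, or 0.25 without cKO 1). Flt1, a VEGF receptor that also acts as a decoy, had means of 0.365 ± 0.139 and 0.561 ± 0.285, a fold of 1.54, or 1.19 without cKO 1. Tie1, an orphan receptor of the angiopoietin pathway, gave 9, 4, 11 and 17 fragments in control and 75, 15, 26 and 24 in cKO. The fold was 3.25 with that library and 2.02 without it, and the groups overlapped (exact permutation p = 0.0571). Robo4, a guidance receptor of vessels, was at 0.0827 ± 0.0494 and 0.201 ± 0.201, with cKO 1 at 0.440. Its fold was 2.44, or 1.47 without that library.

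Eng, a co-receptor for ligands of the TGF-beta family (chromosome 2, 32646595-32682669, plus strand), was at 31.7, 28.3, 32.8 and 27.0 FPKM in control and 28.1, 31.9, 32.8 and 35.1 in cKO. Rgcc, a cell cycle regulator (chromosome 14, 79288756-79301645, minus strand), was at 24.3, 25.9, 21.0 and 20.8 against 27.6, 20.4, 19.6 and 20.3. Ackr1, the chemokine-binding receptor of venules (chromosome 1, 173331886-173333750, minus strand), was at 14.9, 18.1, 16.3 and 19.7 against 22.6, 14.4, 16.9 and 14.0. These 3 genes varied little: their coefficients of variation over the 8 libraries were 9.16%, 13.4% and 17.1%, while Pecam1 reached 48.4%. Their log2 differences were 0.09 ± 0.08, -0.07 ± 0.11 and -0.04 ± 0.14 (SE, limma adjusted p = 0.932, 0.972 and 0.99). Without cKO 1 they were 0.15, -0.18 and -0.18. Rgcc and Ackr1 were highest in cKO 1, as were Pecam1, Plvap and Esam, whereas Eng there lay within the control range.

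The leukocyte adhesion genes of venules did not move as one. Sele, the E-selectin gene that is switched on in inflamed venules, gave 78, 50, 81 and 36 fragments in control and 40, 23, 55 and 12 in cKO. It had the lowest ratio of cKO to control mean among the members, 0.49, with 1.25 ± 0.416 and 0.613 ± 0.339 FPKM (SD, n = 4). The groups overlapped (exact permutation p = 0.0857). Selp, the P-selectin gene, gave 15, 8, 21 and 9 against 80, 14, 23 and 13 fragments, and outside cKO 1 its cKO libraries lay in or near the control range (fold 2.31, or 1.18 without cKO 1). Madcam1, the gut-homing ligand for lymphocytes, stood on 16 fragments in all 8 libraries.

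For all transcription factors in the group the control and cKO libraries overlapped. Fli1, an ETS factor of blood and vessel cells, was at 1.25 ± 0.327 and 1.34 ± 0.332 FPKM (log2 difference 0.06 ± 0.15, SE, limma adjusted p = 0.983). Erg, its close relative and more restricted to endothelium, stood on 20 fragments over all libraries and was listed at 0 in 3 of them. Sox7 was at 0.613 ± 0.0935 and 0.623 ± 0.158, Sox17 at 0.0771 ± 0.0671 and 0.107 ± 0.0661, and Sox18 at 0.0901 ± 0.0686 and 0.257 ± 0.260, the last with 17 of its 37 fragments in cKO 1. The Sox18 fold was 2.85, or 1.51 without that library. Tal1, a factor shared by vessels and blood cell precursors, gave 7 fragments in all, too few for a ratio. Egfl7, a protein secreted by endothelium, was at 0.603 ± 0.332 and 0.932 ± 0.318 (exact permutation p = 0.2).

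Lymphatic genes gave 4 of the 6 values whose groups did not overlap. Mmrn1, a matrix protein secreted by lymphatic endothelium (chromosome 6, 60924976-60989378, plus strand), was at 0.404, 0.127, 0.372 and 0.311 FPKM in control and 1.40, 0.524, 0.884 and 0.883 in cKO. All 4 cKO libraries exceeded the highest control, with a fold of 3.04 (2.52 without cKO 1). Reln, a secreted glycoprotein that lymphatic cells release to the muscle around collecting vessels, gave 6, 7, 4 and 8 fragments in control and 42, 18, 17 and 10 in cKO. The lowest cKO library was only 2 fragments above the highest control, and the ratio was 3.25 (95% interval 2.06 to 5.30, counting error only). The fold in mean FPKM was 3.21, or 2.22 without cKO 1. Both reached the smallest exact permutation p of 0.0286, as did Flt4, none adjusted for the number of members.

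Prox1 (chromosome 1, 190118035-190170714, minus strand) gave 15, 14, 28 and 9 fragments in control and 25, 19, 28 and 13 in cKO. The groups lay over each other, with a ratio of 1.2 (95% interval 0.862 to 1.69). Lyve1, the hyaluronan receptor of lymphatic capillaries and of some macrophages, gave 40, 9, 6 and 24 against 59, 15, 53 and 25 fragments, with the groups overlapping (exact permutation p = 0.229). Stab1 and Stab2 are scavenger receptors, the first also found on macrophages. Stab1 was at 0.213 ± 0.152 and 0.301 ± 0.14 FPKM, and Stab2 at 0.0388 ± 0.0391 and 0.0377 ± 0.0384. The Stab2 ratio was 0.971, or 0.513 without cKO 1.

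**Figure D2:**
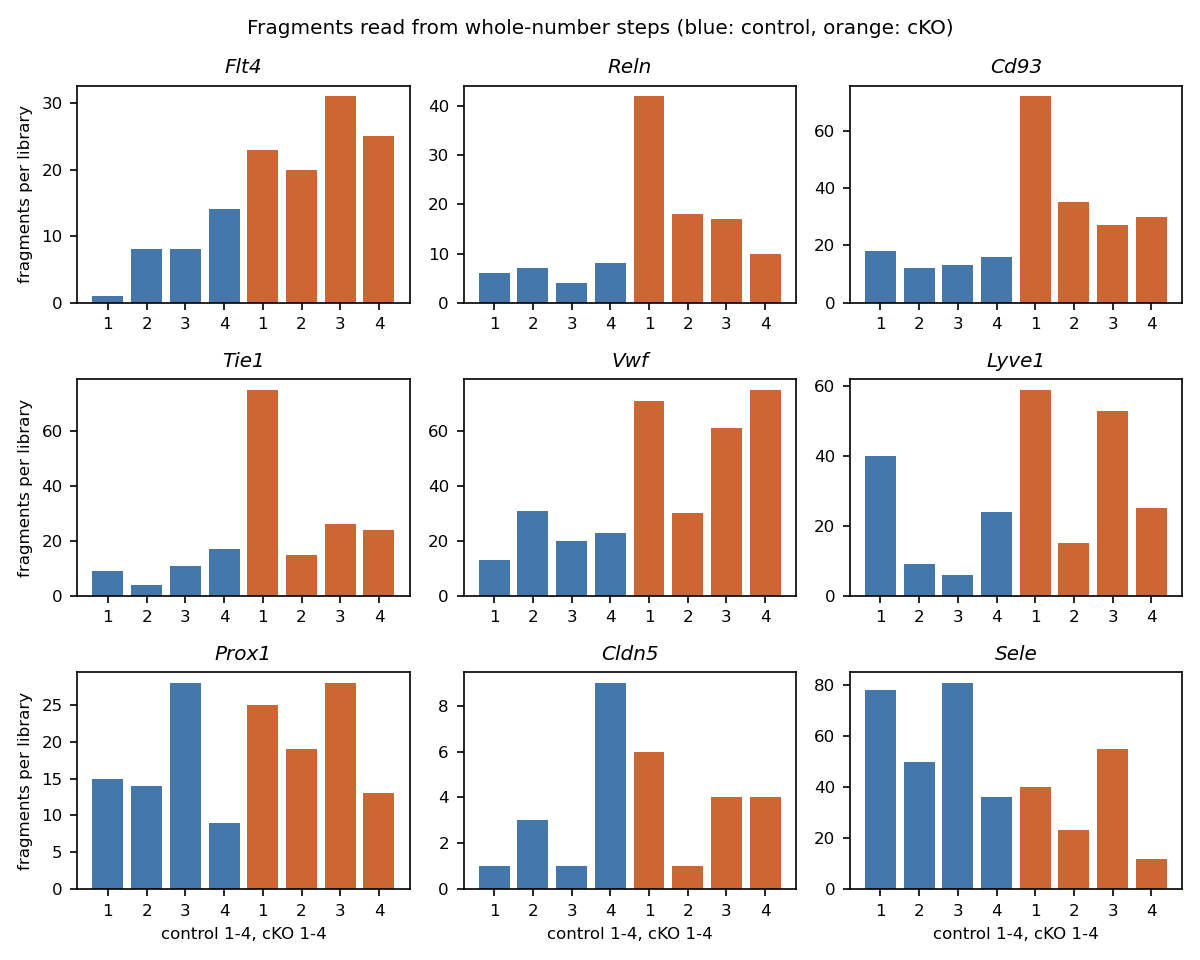
Fragments per library (vertical axes, each to its own scale) for 9 members, chosen after their values were seen, read from the whole-number steps of their FPKM, with control 1 to 4 in blue and cKO 1 to 4 in orange. Flt4, Reln and Cd93 do not overlap between groups, Prox1, Cldn5 and Lyve1 do, and Sele leans the other way.

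The CCL21 chemokine rows were the highest of the lymphatic members, and they cannot be read singly. Ccl21a (chromosome 4, 42772860-42773993, minus strand) was at 0.000329, 0.0017 and 0.000607 FPKM in control 1, 2 and 4, at 4.49 in control 3 and at 11.9, 4.81, 7.2 and 7.63 in cKO. Gm1987 was at 3.25, 4.12, 0.134 and 4.12 in control and at 0.0992 to 0.137 in cKO. In each library 1 of the 2 rows held nearly all of the signal. The GENCODE M21 transcript of Ccl21a has 870 bases, and that of Gm21541, an annotated copy, differs from it at 6 of them (99.3% identity). Gm21541 stands in for Gm1987, whose own sequence was not used here, so that the identity of Gm1987 to Ccl21a was not measured. The window from base 239 to 299 of both transcripts is shown because it holds a single difference, C269T, counted from the first base of the Ccl21a transcript and capitalised, in a stretch that a short read can span without meeting another.
Ccl21a: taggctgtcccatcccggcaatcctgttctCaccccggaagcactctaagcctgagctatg
Gm21541: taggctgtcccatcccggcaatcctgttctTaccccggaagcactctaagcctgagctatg

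Summed, the 2 rows were at 3.25, 4.12, 4.63 and 4.12 FPKM in control and 12.1, 4.91, 7.29 and 7.73 in cKO. All cKO libraries exceeded all control libraries, cKO 2 narrowly. The means were 4.03 ± 0.571 and 8.01 ± 2.99 (SD, n = 4), and the log2 difference was 0.79 ± 0.21 (SE, limma adjusted p = 0.897), or 0.59 without cKO 1 (adjusted p = 0.465). Taken as separate rows, Ccl21a would be higher by 2.48 and Gm1987 lower by a log2 difference of -1.59, and neither passed (limma adjusted p = 0.761 and 0.897). Ccl21b, Ccl21c and Gm13304 were listed at 0 in all 8 libraries. Which cells held the CCL21 transcripts was not tested. Of 8 markers of reticular stromal cells, Cxcl13 was at 11.7 to 28.5 and Ccl19 at 2.05 to 5.18 FPKM over the libraries. Tnfsf11 was at 0.0308 to 0.208 and Bst1 at 0 to 0.0503.

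**Figure D3:**
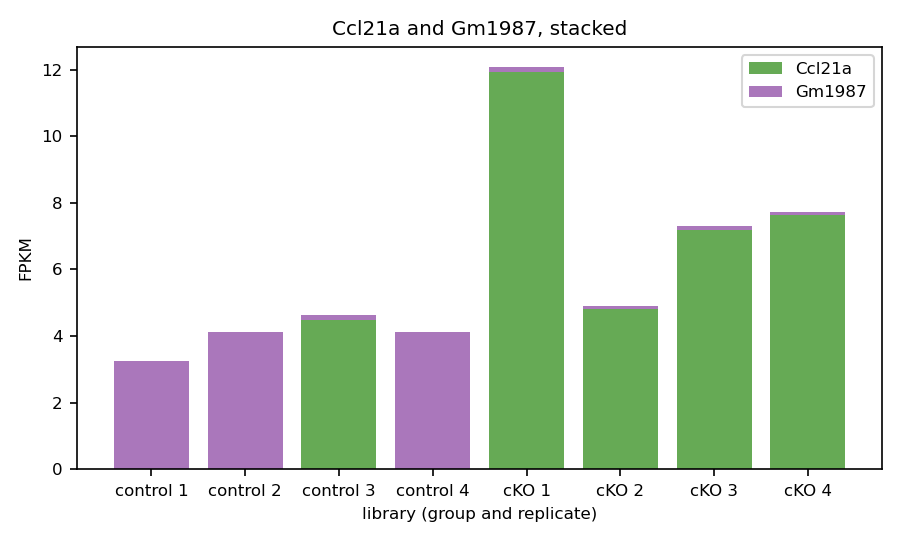
FPKM of Ccl21a and Gm1987 in each library, with control on the left and cKO on the right. Signal sits in Gm1987 in control 1, 2 and 4 and in Ccl21a in the other 5 libraries, while the sum runs from 3.25 to 4.63 in control and from 4.91 to 12.1 in cKO.

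Levels were then summed within each library by vessel class, as a description with no test. The classes are those of the gene lists, and which cells held the transcripts was not tested. The 8 lymphatic values summed to 5.24, 5.05, 5.73 and 5.48 FPKM in control and 16.1, 6.55, 10.2 and 9.90 in cKO, so that the groups did not overlap. Of each sum, 62.0% to 81.5% came from the Ccl21a and Gm1987 pair. Without the pair, the lymphatic sum was 1.34 ± 0.464 in control and 2.68 ± 1.02 in cKO, and the groups overlapped. The 18 blood values summed to 81.5 ± 2.42 and 87.4 ± 12.7, with 73.8% to 87.5% from Eng, Rgcc and Ackr1. In the same libraries Pecam1 was at 0.594 to 2.37 and Cdh5 at 0.017 to 0.126 FPKM. Whether the blood sum follows the amount of blood vessel cells was not tested. Leaving those 3 out, a choice made after their values were seen, the blood sum was 11.2, 10.3, 13.1 and 10.4 against 27.8, 11.0, 14.1 and 13.1. Outside cKO 1 the blood sums of the cKO libraries thus lay close to the control range.

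The ratio of lymphatic to blood sums within a library was 0.0639, 0.0612, 0.0687 and 0.0703 in control and 0.152, 0.0843, 0.122 and 0.120 in cKO. Every cKO ratio exceeded every control ratio. With Eng, Rgcc and Ackr1 left out of the blood sum, the ratio was 0.481 ± 0.0388 in control and 0.662 ± 0.0894 in cKO, and again all cKO libraries were higher, from 0.579 upward against at most 0.529. With the chemokine pair left out of the lymphatic sum, the ratio to all blood values was 0.0165 ± 0.00574 and 0.0299 ± 0.0076, and the groups overlapped. The 8 members of both vessel types summed to 4.72 ± 0.938 and 7.54 ± 2.85, the latter 6.18 without cKO 1.

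**Figure D4:**
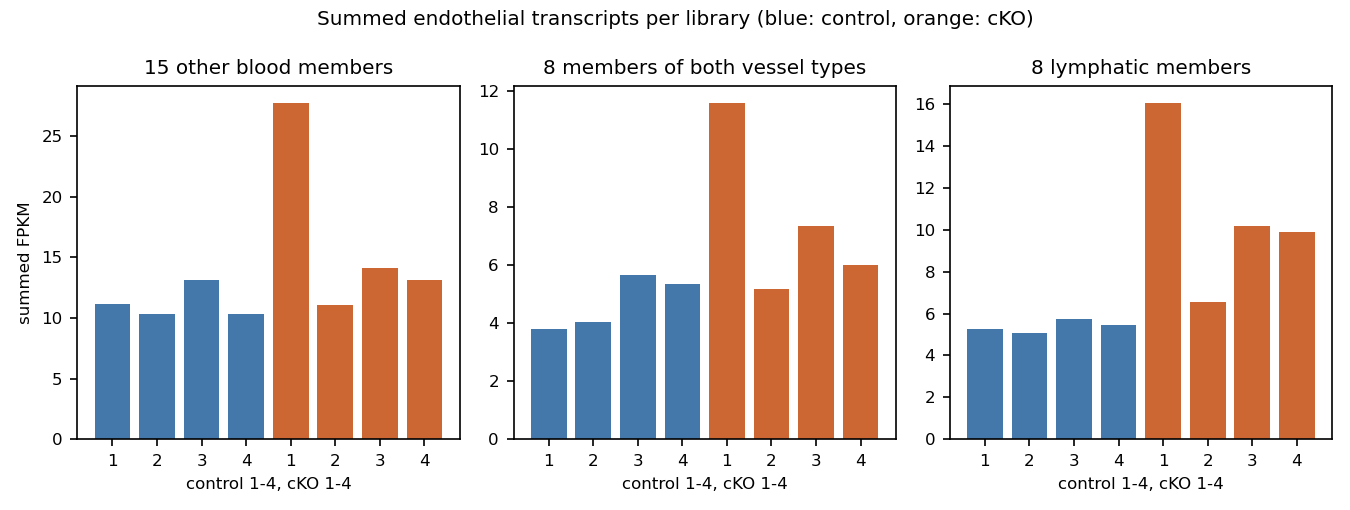
Summed FPKM per library for 15 blood members (without Eng, Rgcc and Ackr1), 8 members of both vessel types and 8 lymphatic values, each panel with its own axis from 0. The lymphatic sums are at most 5.73 in control and at least 6.55 in cKO, and the blood sums stand out in cKO 1 only.

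By class, 7 of 8 lymphatic values, 13 of 18 blood values and 8 of 8 values of both vessel types had a higher cKO mean. The share was 51.8% of all genes and 60.0% of the 5653 genes of like level. Without cKO 1 the class counts were 7, 10 and 5, beside 50.6% of all genes and 53.2% of those of like level. On the log2(FPKM + 0.1) scale the median difference was 0.68 for lymphatic, 0.20 for blood and 0.63 for shared values, 0.00 over all genes above 0 and 0.09 over the 5653 genes of like level. Without cKO 1 the medians were 0.46, 0.14 and 0.32. With a pseudocount of 1, which compresses low genes, the medians were 0.15, 0.07 and 0.23, or 0.12, 0.04 and 0.12 without cKO 1. Whether the classes differ from each other was not tested.

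**Figure D5:**
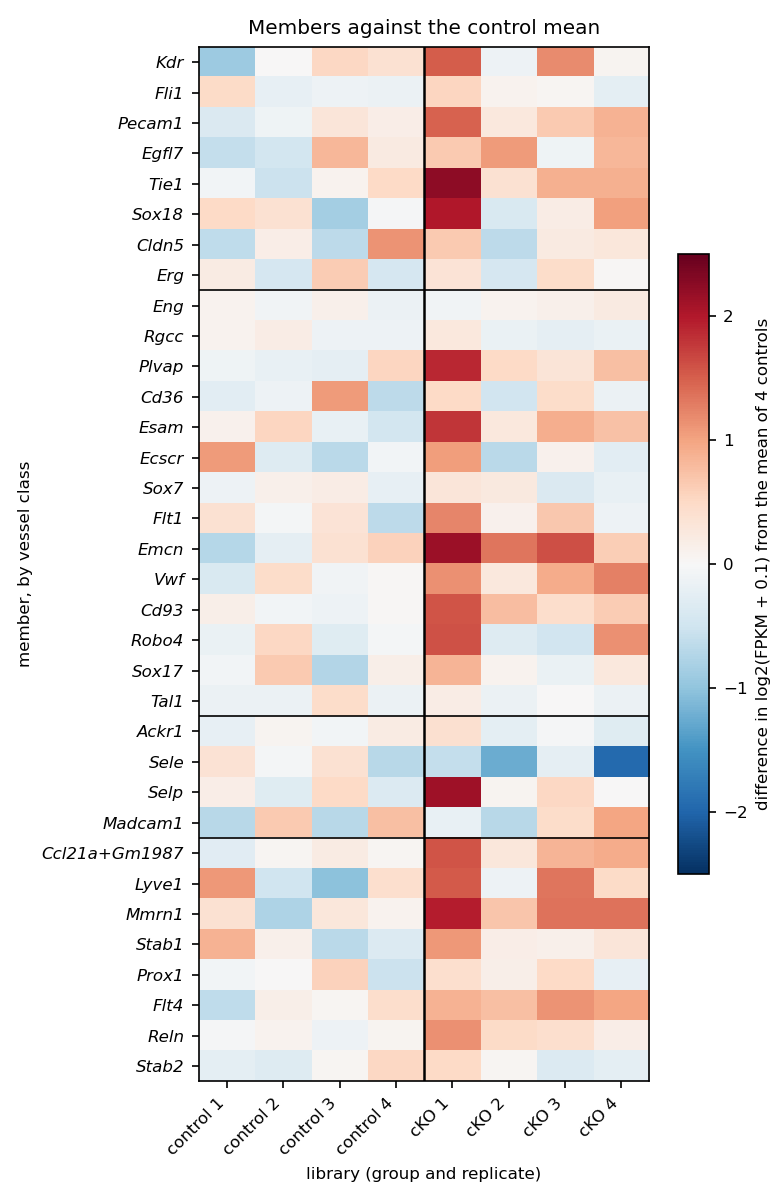
Difference of each member in each library from the mean of the 4 control libraries, in log2(FPKM + 0.1), with red for higher and blue for lower and lines between vessel classes. The cKO 1 column is red for most members, Sele is blue in all 4 cKO libraries, and Eng, Rgcc and Ackr1 are pale throughout.

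Further genes known from endothelium were listed beside the members, several of which other cells express too. Of 34 blood or pan-endothelial genes 33 were present, and 24 had a higher cKO mean. The share was 51.8% of all genes above 0, and 60.0% of the 5653 genes from the lowest member to 1 FPKM. Limma tested 13: none was called, none was higher and 1 was lower at an unadjusted p under 0.05 (2.37% and 3.02% of all genes). Without the filter on low values all 33 were tested, none was called, and 2 were higher and 2 lower (2.64% and 2.56%), with a median log2(FPKM + 0.1) difference of 0.28. The gene lower in the filtered fit was Tek, the angiopoietin receptor, at 85.6 to 93.1 FPKM in control and 69.0 to 85.0 in cKO (log2 difference -0.17 ± 0.07, SE, limma adjusted p = 0.897). Cd34 at 881 to 1002 and Ramp2 at 93.6 to 120 FPKM were the other most abundant, far above Pecam1 in the same libraries. Ptprb, the phosphatase that acts on Tek, was the only one wholly higher in cKO (0.059 to 0.0854 against 0.115 to 0.247 FPKM), and Tek and Lyl1 were wholly lower, where 1.45% and 1.49% of all genes were so. Of 16 further lymphatic genes 13 were present, 3 of them at 0 in all libraries. Of the 10 above 0, 7 had a higher cKO mean, beside the same shares of 51.8% and 60.0%. None lay wholly higher or lower in cKO (1.45% and 1.49% of all genes). Limma tested 6, with none called and none at an unadjusted p under 0.05. Without the filter 10 were tested, with the same outcome and a median log2(FPKM + 0.1) difference of 0.15. The most abundant were Fgl2, Pdpn and Nrp2. Of the ligands for the receptors above, 9 were tested, none was called, and 1 was lower at an unadjusted p under 0.05, as 3.02% of all genes were. Figf, the gene of VEGF-D and so a ligand of Flt4, was at 56.5 to 68.3 FPKM in control and 40.3 to 61.9 in cKO (log2 difference -0.30 ± 0.12, SE, limma adjusted p = 0.897, unadjusted p = 0.026), and Vegfc, the other ligand of Flt4, had a difference of -0.03 ± 0.12.

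Promoters are shown for 4 low members that were higher in every cKO library than in any control, for Ccl21a, and for Eng as an abundant member whose groups overlapped. They were chosen after the values were seen. Each run is the 250 bases before the RefSeq start of the gene (GRCm38.p6), on the gene's strand, with capitals for the words described in the next paragraph, on either strand. Of these, AGGAAG and its relatives hold the core that ETS factors such as Erg and Fli1 bind, whereas ACAAT is a core of SOX sites. RefSeq promoters were found for 23 of the 35 members. The Mmrn1 and Flt4 runs lie wholly inside the GENCODE M21 gene positions printed above. For these genes the RefSeq start used here is thus downstream of the GENCODE start.
Flt4 (chr11:49609429-49609678, plus strand): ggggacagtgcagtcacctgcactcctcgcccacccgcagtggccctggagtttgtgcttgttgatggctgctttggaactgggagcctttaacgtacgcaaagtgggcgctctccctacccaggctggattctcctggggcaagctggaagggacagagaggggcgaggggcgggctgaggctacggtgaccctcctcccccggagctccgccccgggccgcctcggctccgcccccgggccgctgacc
Mmrn1 (chr6:60944067-60944316, plus strand): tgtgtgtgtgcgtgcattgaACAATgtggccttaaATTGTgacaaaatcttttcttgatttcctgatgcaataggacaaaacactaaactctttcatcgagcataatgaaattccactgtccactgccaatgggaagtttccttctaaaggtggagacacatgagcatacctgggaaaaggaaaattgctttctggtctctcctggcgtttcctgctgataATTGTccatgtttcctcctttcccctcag
Reln (chr5:22344706-22344955, minus strand): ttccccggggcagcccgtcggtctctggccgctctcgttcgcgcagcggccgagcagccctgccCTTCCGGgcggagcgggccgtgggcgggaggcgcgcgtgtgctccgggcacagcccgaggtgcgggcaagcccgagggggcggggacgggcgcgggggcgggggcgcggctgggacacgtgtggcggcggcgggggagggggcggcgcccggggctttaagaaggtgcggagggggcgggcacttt
Emcn (chr3:137340828-137341077, plus strand): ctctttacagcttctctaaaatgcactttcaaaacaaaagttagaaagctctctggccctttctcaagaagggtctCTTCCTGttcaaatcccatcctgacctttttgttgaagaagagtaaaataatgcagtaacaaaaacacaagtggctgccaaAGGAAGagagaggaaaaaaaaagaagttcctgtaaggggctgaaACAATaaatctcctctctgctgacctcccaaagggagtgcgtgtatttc
Ccl21a (chr4:42773992-42774241, minus strand): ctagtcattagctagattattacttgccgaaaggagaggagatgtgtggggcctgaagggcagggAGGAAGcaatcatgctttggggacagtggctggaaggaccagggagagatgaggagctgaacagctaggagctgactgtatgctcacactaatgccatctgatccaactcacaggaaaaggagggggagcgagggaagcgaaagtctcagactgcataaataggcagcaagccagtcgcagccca
Eng (chr2:32646345-32646594, plus strand): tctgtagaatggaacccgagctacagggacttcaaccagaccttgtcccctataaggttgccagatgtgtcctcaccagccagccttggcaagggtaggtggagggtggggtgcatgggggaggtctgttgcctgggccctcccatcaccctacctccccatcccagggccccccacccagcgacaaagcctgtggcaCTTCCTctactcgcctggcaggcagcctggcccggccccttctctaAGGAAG

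In those 23 promoters, 11 words were counted on both strands, and the ones capitalised were picked after the counts were seen. AGGAAG was in 14 of 23, Eng, Emcn, Ccl21a, Flt1 and Tie1 among them, and in 29.2% of 27025 promoters of the same length. CAGGAAG, which contains it, was in 6 (10.5% of all), CCGGAAG in 1 (7.05%), and ACAAT in 4 (28.3%). For the 7 words not marked, the counts were 21 for GGAA (93.4%), 0 for ACTTCCTG (2.73%), 2 for ACAATG (11.0%), 4 for ACAAAG (16.5%), 3 for TATAAA (13.0%), 12 for CACCC (51.3%) and 3 for AACAAT (9.65%). With 11 words counted, a high share for 1 of them is a description of these sequences only. Flt4 held none of the capitalised words, Reln held CCGGAAG alone and Mmrn1 held ACAAT alone.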

How the data were processed

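RNA from 8 sorted stromal samples, 1 per mouse per the labels' design text, was grouped by genotype label into 4 control and 4 cKO libraries. The authors deposited FPKM values per gene symbol, made on mm10 per the submitters' processing notes. Those notes list Cufflinks 2.2.1 with Cuffdiff, Bowtie2 2.3.5.1 and TopHat2 2.1.1, besides SAMtools 0.1.18. The role of each tool and the annotation were not stated. FPKM falls when other genes take more of a library, and reads of near-identical genes can be split between rows. Ccl21a and Gm1987, between which the signal alternated, were summed.

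Values were set to log2(FPKM + 1), and 11505 genes averaging 1 FPKM or more over the libraries entered a limma fit (version 3.58.1 under R 4.3.3; lmFit, eBayes with trend, Benjamini-Hochberg over all genes, called at an adjusted p under 0.05). Differences on this scale understate changes of low genes. The 24 members below that mean were tested by two-sided exact permutation of mean FPKM. Fragments were recovered for 22 of the 35 members, whose values lay within 0.01 of whole multiples of 1 fragment's worth. Their 95% intervals pool the fragments of the 4 libraries of each group. They cover counting error only, not the spread between mice. The libraries have no molecular identifiers, so copies of 1 molecule may be counted more than once, which the intervals leave out. The depth estimate used 165 genes. The limma script was tested on simulated data. Python 3.11.15, pandas 2.3.3, scipy 1.17.1 and Biopython 1.88 were used. Gene positions are from GENCODE M21, available for 34 members, and promoters are from RefSeq.

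Members, gene lists and the summaries were chosen with earlier results of these data known. The rule named every member, the most abundant of the other endothelial and ligand genes, and those with the smallest p. Of lists of other cell types, summed levels are given where cKO 1 was the highest or lowest library. Markers of reticular stromal cells are given beside the CCL21 rows and were named after their values were seen. Ptprb, Lyl1, Vegfc, Fabp4 and Pf4 were named after their values were seen. The background of 5653 genes, the blood sum without Eng, Rgcc and Ackr1 and the unfiltered fit with a pseudocount of 0.1 were chosen after seeing the data. Other filters, scalings, weights, the replicate block and leaving out each library were tried.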

Additional observations from a re-analysis of the deposited data

Results flagged for a closer look

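In 7 of 76 sets of 4 libraries, 1 library lay far from the other 3 of its group by a gap test that chance passes in about 1 of 20 groups. Of these, 4 were in cKO 1: Tie1 at 1.05 FPKM (next highest 0.351), Rgcc at 27.6 (20.4), Selp at 1.28 (0.352) and Stab1 at 0.510 (0.255). The others were Plvap at 5.08 in control 4 (3.20), Fli1 at 1.74 in control 1 (1.11) and Tal1 at 0.0530 in control 3, where the other control libraries were listed at 0.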

How the results depend on the processing

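No member was called by limma under any alternative tried, including the replicate block, which gave 0 members called and 1 gene called. Same-numbered control and cKO libraries deviated together with correlations of 0.0182 to 0.0912, and no control library correlated best with its own number, so the numbers were not taken as pairs. Leaving out single libraries gave 1 to 4 called genes (4 without cKO 1, 2 without cKO 2), 22 to 29 members with a higher cKO mean (50.6% to 52.8% of all genes) and 5 to 7 low members without overlap, all higher in cKO except Sele without control 4 (2.35% to 3.11% of all genes higher, 2.39% to 3.32% lower). With a pseudocount of 0.1 and no filter, 0 of 34 members were called, 11 being higher and 1 lower before adjustment. The median ratio of lymphatic to blood sums over 8 libraries was 0.0773, and became 0.0724 with shared members counted as blood and 0.0227 without Ccl21a and Gm1987.

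Of 390 comparisons of single members with an alternative, 351 kept direction and call, where the call for low members is non-overlap. In 5 the groups of a low member ceased to overlap, and 34 changed sign, all on leaving out 1 library. The ranges were -0.0273 to 0.161 for Fli1, -0.115 to 0.325 for Cd36 and -0.18 to 0.0386 for Ackr1 (log2), and in mean FPKM -0.0377 to 0.0786 for Cldn5, -0.00695 to 0.0296 for Erg, -0.0402 to 0.067 for Sox7, -0.00175 to 0.0579 for Sox17, -0.0272 to 0.0462 for Madcam1, -0.0189 to 0.0171 for Stab2, -0.00913 to 0.0095 for Tal1 and -0.247 to 0.322 for Ecscr. The cause was not tested. Of the 22 members with recovered fragments, 6 had under 100 in all 8 libraries together, and fragments of the other low members were not read.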
